A study of Mus musculus with 6 samples.

Results

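Transcript levels of 8 homeobox genes were followed in a mouse model of blast crisis chronic myeloid leukemia (bcCML): Hoxa3, Hoxa5, Hoxa7, Hoxa9 and Hoxa10 of the Hoxa cluster, and Meis1, Pbx2 and Pbx3, which encode proteins that bind DNA together with Hox proteins. They were chosen by name as partners of the NUP98-HOXA9 oncogene that drives this leukemia, and all 8 had a row among the 36083 genes of the deposited table. The leukemia was made by infecting KLS cells, the c-Kit+ Lin- Sca1+ stem and progenitor fraction, from WT or Sdc1-/- donors with retroviruses carrying BCR-ABL and NUP98-HOXA9. Both groups therefore carried both oncogenes, expressed from MSCV vectors, and doubly positive cells were transplanted. Donors were on the B6 background, and the labels name NSG recipients, a strain without mature T, B and NK cells that keeps its own myeloid cells. For primary bcCML transplants the paper's methods instead name irradiated mice of a B6 strain, so the sources differ on the recipients. Lin- bcCML cells were sorted from the spleens of mice killed at 1 common time, and each group, WT and Sdc1-/-, has 3 RNA-seq libraries. The Sdc1 allele, carried in the donor germline, disrupts the signal peptide of syndecan-1 and is described as keeping the protein off the cell surface. The study used mice of both sexes and states that animals were matched for age and sex. The labels give neither age nor sex for these donors, and they do not say whether the libraries of a group came from separate mice. The legend of a supplementary figure gives n = 3 technical replicates for RNA-seq of Lin- WT bcCML cells. It does not say whether those are these libraries. The p-values thus measure the spread between these libraries, which may be technical rather than between leukemias.

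Hox genes encode transcription factors that lie in clusters, and in blood formation the Hoxa genes are active in stem and progenitor cells and are turned down as cells mature. Hox proteins bind DNA weakly alone and gain selectivity by pairing with the TALE homeodomain proteins of the PBX and MEIS families, PBX through a short peptide motif of the Hox protein and MEIS through PBX or, for posterior Hox proteins, directly. NUP98-HOXA9 joins the phenylalanine-glycine repeats of a nucleoporin to the homeodomain of HOXA9, and fusions of this class are known to keep the Hoxa cluster and Meis1 active. Co-expression of Hoxa9 and Meis1 is a classical cause of myeloid leukemia in mice, and Pbx3 is a known partner in that setting.

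In the annotation of GRCm38 the 5 Hoxa genes lie on the minus strand of chromosome 6 between 52169062 and 52240854, a stretch of 71.8 kb. Meis1 is on the minus strand of chromosome 11 (18879817 to 19018985), Pbx2 on the plus strand of chromosome 17 (34591266 to 34597400) and Pbx3 on the minus strand of chromosome 2 (34171457 to 34373142). RefSeq promoter windows of GRCm38.p6, from 250 bases before to 50 bases after a start site, were at hand for 7 of the 8 genes, and Pbx3 had no entry. Those of Hoxa5 and Meis1, the members with the largest change, and of Hoxa7, the member with the smallest, are shown 5′ to 3′. CpG dinucleotides are in capitals, to show how the start regions of members differ in CpG count. Their GC content was closer, at 61.7% for Hoxa5, 58.3% for Meis1 and 55.7% for Hoxa7. The windows are chr6:52204538-52204837 (minus strand) for Hoxa5, chr11:19018920-19019219 (minus strand) for Meis1 and chr6:52218524-52218823 (minus strand) for Hoxa7.
Hoxa5: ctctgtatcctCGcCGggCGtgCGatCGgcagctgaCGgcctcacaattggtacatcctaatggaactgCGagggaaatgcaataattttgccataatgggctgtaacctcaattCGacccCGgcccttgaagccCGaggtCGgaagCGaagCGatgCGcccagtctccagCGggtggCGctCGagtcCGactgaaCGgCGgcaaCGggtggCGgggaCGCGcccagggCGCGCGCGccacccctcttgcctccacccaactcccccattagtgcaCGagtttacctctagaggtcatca
Meis1: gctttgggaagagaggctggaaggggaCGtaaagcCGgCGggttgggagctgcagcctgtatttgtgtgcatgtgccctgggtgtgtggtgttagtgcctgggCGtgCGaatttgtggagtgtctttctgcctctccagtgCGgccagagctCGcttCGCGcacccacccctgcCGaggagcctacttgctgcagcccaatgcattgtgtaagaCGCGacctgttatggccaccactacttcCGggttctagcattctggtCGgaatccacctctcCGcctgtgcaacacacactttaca
Hoxa7: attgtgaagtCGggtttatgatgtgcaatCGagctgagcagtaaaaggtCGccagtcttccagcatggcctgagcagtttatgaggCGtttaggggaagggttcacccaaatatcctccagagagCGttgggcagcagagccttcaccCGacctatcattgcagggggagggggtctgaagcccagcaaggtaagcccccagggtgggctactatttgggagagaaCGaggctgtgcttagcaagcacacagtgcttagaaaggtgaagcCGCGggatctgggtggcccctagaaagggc
The Hoxa5 window held 29 CpG, that of Meis1 15 and that of Hoxa7 9, where the median of all 32851 windows was 7. The CpG count did not order the members by their change: Pbx2 had 29, Hoxa3 had 20, the 2 windows of Hoxa10 had 12 and 21, and Hoxa9 had 4. The HOX-PBX motif TGATTTAT, read on both strands, occurred in 0 of the 8 member windows and in 0.977% of all windows, and the PBX motif TGATTGAT in 0 of 8 and in 0.746%. The MEIS motif TGACAG was in 1 member window, that of Hoxa3, and in 19.2% of all windows. None of these 3 motifs contains another, and a missing match says only that these letters are not in these windows.

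Sdc1, the targeted gene, stood at 1.75, 1.21 and 1.51 in the libraries labelled WT and at 3.85, 3.80 and 4.12 in the libraries labelled Sdc1-/-. The transcript was higher, not lower, in the libraries with the knockout label. Every direction below is that of the labels and would be turned if these were exchanged, which was not tested. The allele is described by its protein, and whether this transcript level checks the genotype is not given in the sources used here. Values are TPM, a level per transcript length, which the authors obtained with kallisto and rescaled between libraries. Sums ran from 1048875 to 1058263 in libraries labelled WT and from 944973 to 951814 in libraries labelled Sdc1-/-, so they differed by group. The number of reads is unknown, and no counting interval can be given. The Y-linked genes Ddx3y and Eif2s3y stood at 12.1 to 14.1 and at 43.2 to 49.8 in the libraries labelled Sdc1-/- and at or under 0.016 in each library labelled WT, so sex of the cells and genotype cannot be told apart here. The paper states that its animals were matched for sex, which these values do not show for these groups. Genes with a mean of at least 1, 12155 in all, were compared with limma on log2(value + 1), a scale on which fold changes of low genes are understated, with Benjamini-Hochberg adjustment over all of them. At an adjusted p under 0.05, 3564 genes were higher in the libraries labelled Sdc1-/- and 3810 lower. After scaling of all libraries to the same sum of 1000000, those counts were 5290 and 2367, and the all-gene median went from -0.0097 to 0.12 on the log2 scale.

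All 8 members had a mean of at least 1, and 7 of them, Hoxa3, Hoxa5, Hoxa9, Hoxa10, Meis1, Pbx2 and Pbx3, rose in the libraries labelled Sdc1-/- (adjusted p under 0.05, limma). Hoxa7 did not pass the test and 0 members fell. Among all tested genes 29.3% were called higher, 31.3% lower and 60.7% in either direction. For all 8 genes the lowest library labelled Sdc1-/- lay above the highest library labelled WT, a pattern that 32.6% of the tested genes shared. Hoxa5 and Meis1 at least doubled on the log2 scale, 2 of 8 members against 1.91% of all tested genes. The median log2 fold change of the 8 was 0.28, beside -0.0097 over all genes. The 8 were chosen with earlier results of these data known, so these contrasts with all genes are descriptive. Markers of mature myeloid cells moved the other way between the same libraries: all 8 neutrophil markers were lower, with a summed level of 12573 to 13516 in WT and 4570 to 4709 in libraries labelled Sdc1-/-, and their part in the rise of the homeobox genes was not tested. In bulk RNA a larger share of cells that express a gene cannot be told apart from more RNA per cell.

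**Figure D1:**
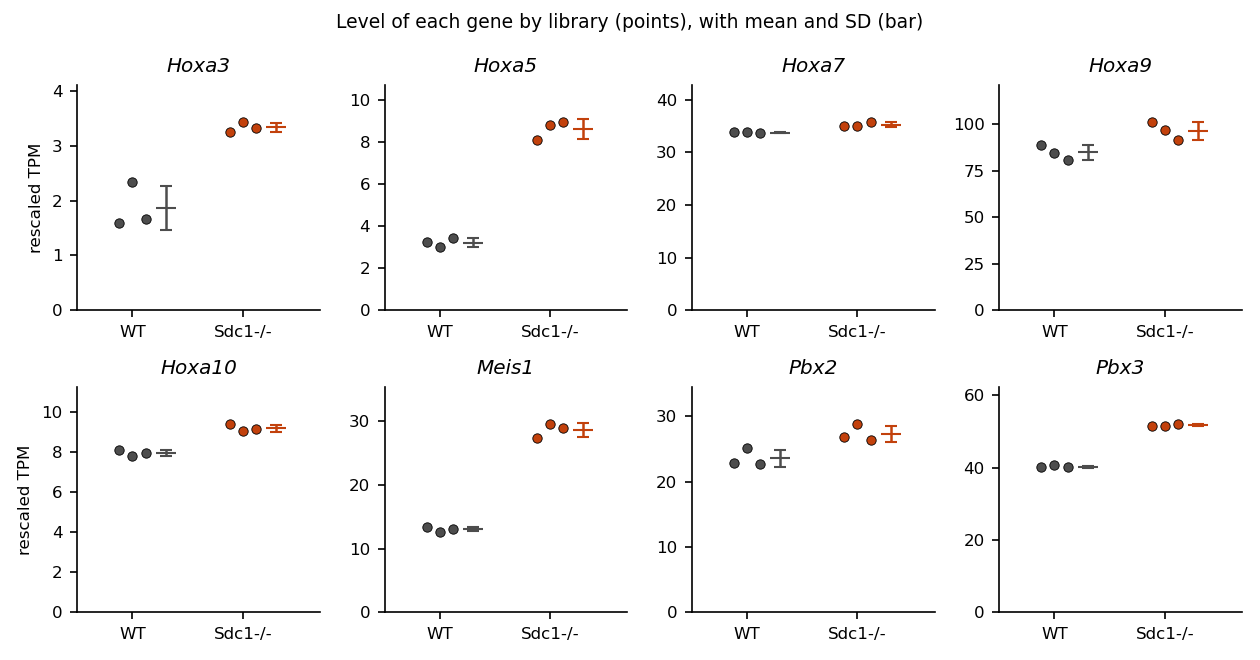
Rescaled TPM (vertical axes, from 0) of the 8 genes in each of the 3 WT and 3 Sdc1-/- libraries (points), with the group mean and SD beside them. Meis1 and Hoxa5 show the largest folds, 13.1 against 28.6 and 3.22 against 8.62, while Hoxa7 differs by 1.05-fold.

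Hoxa9, the cellular counterpart of the HOXA9 portion of the driver, was the most abundant member. It stood at 89.0, 84.6 and 80.9 in WT and reached 101, 97.0 and 91.5 under the Sdc1-/- label. The groups did not overlap, but the gap between the lowest library labelled Sdc1-/- and the highest labelled WT was small beside the spread within a group. The log2 fold change was 0.18 (95% CI 0.064 to 0.30, limma adjusted p = 0.017), and it fell short of the threshold without WT replicate 3, without Sdc1-/- replicate 1 or without Sdc1-/- replicate 2 (adjusted p = 0.054, 0.050 and 0.053 in limma). Reads of the retroviral fusion that match mouse Hoxa9 would be counted here, which was not tested. Of the 5569 distinct words of 31 bases in the annotated Hoxa9 transcripts, 57 occur in transcripts of other genes, 55 of these in Mir196b, a microRNA gene inside the Hoxa9 locus.

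Hoxa10, the next gene of the cluster and like Hoxa9 a posterior gene with a role in progenitor expansion, was expressed at a much lower level. It had values of 8.10, 7.83 and 7.95 in WT and of 9.40, 9.05 and 9.19 in libraries labelled Sdc1-/-. Every library labelled Sdc1-/- was higher, and the log2 fold change was 0.19 (95% CI 0.089 to 0.29, limma adjusted p = 0.0069). The ratio of Hoxa9 to Hoxa10 within a library was 10.7 ± 0.43 (SD, n = 3) in WT and 10.5 ± 0.45 (SD, n = 3) in libraries labelled Sdc1-/-, and the groups overlapped. The exact permutation test (two-sided) of the difference of log2(value + 1) gave p = 0.8, and 0.5 with a pseudocount of 0.1.

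Hoxa7, a gene of the middle of the cluster and a known target of MLL fusions, was the second Hoxa gene in level. It was nearly constant within the WT group, at 33.8, 33.8 and 33.6, and stood at 35.1, 35.0 and 35.7 in the libraries labelled Sdc1-/-. Although the groups did not overlap, the 95% CI of the log2 fold change, 0.062, ran from -0.0091 to 0.13 (limma adjusted p = 0.11). The call depended on the scaling. Quantile normalization gave 0.083 (limma adjusted p = 0.047), and a sum of 1000000 per library gave 0.21 (limma adjusted p = 0.00089), of which 0.083 was left relative to the median of all genes.

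Hoxa5, an anterior gene known for restraining erythroid and promoting myeloid differentiation, had the largest change of the 8. In libraries labelled WT it stood at 3.23, 3.01 and 3.41, and in libraries labelled Sdc1-/- at 8.09, 8.82 and 8.94. The lowest library labelled Sdc1-/- was thus more than double the highest library labelled WT. The means, 3.22 ± 0.20 and 8.62 ± 0.46 (SD, n = 3 each), differed 2.68-fold, with a log2 fold change of 1.19 (standard error, SE, 0.063, limma adjusted p = 8.9e-06). Hoxa3, also anterior, was the lowest member, at 1.60, 2.33 and 1.66 in WT and 3.25, 3.43 and 3.31 in libraries labelled Sdc1-/-. WT replicate 2 was high for its group but stayed below all libraries labelled Sdc1-/-, and the log2 fold change was 0.61 (SE 0.10, limma adjusted p = 0.0021). The annotated Hoxa3 gene spans Hoxa4, Hoxa5 and Hoxa6 on the same strand, and 8.2% of its words of 31 bases also occur in other genes, most of them in Gm28308, so its level is less certain.

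Along the cluster the change was uneven. Further Hoxa genes, from a list of the other Hox and TALE genes, were Hoxa2, Hoxa4, Hoxa6, Hoxa11 and Hoxa13. Hoxa6 lies between Hoxa5 and Hoxa7 and rose much as Hoxa5 did, from 1.57 ± 0.35 to 4.34 ± 0.73 (SD, n = 3 each, log2 fold change 1.05, limma adjusted p = 0.00046). Hoxa4 had means of 1.00 and 1.30 with overlapping libraries (limma adjusted p = 0.12). Hoxa2 had a mean below 1 over the 6 libraries, and Hoxa11 and Hoxa13 were listed at 0 in all of them. Hoxa2 stood at 0.66, 0.78 and 0.70 in WT and at 1.06, 1.37 and 1.30 in libraries labelled Sdc1-/-, without overlap. Summed over the 11 Hoxa genes, the level was 131 to 140 in WT and 156 to 165 in libraries labelled Sdc1-/-. Hoxa9 and Hoxa7 made up 62.7% and 25.0% of that sum in WT and 60.1% and 22.0% in libraries labelled Sdc1-/-, while Hoxa5 went from 2.38% to 5.38%. The large changes were thus in genes that contribute little to the Hoxa total.

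**Figure D2:**
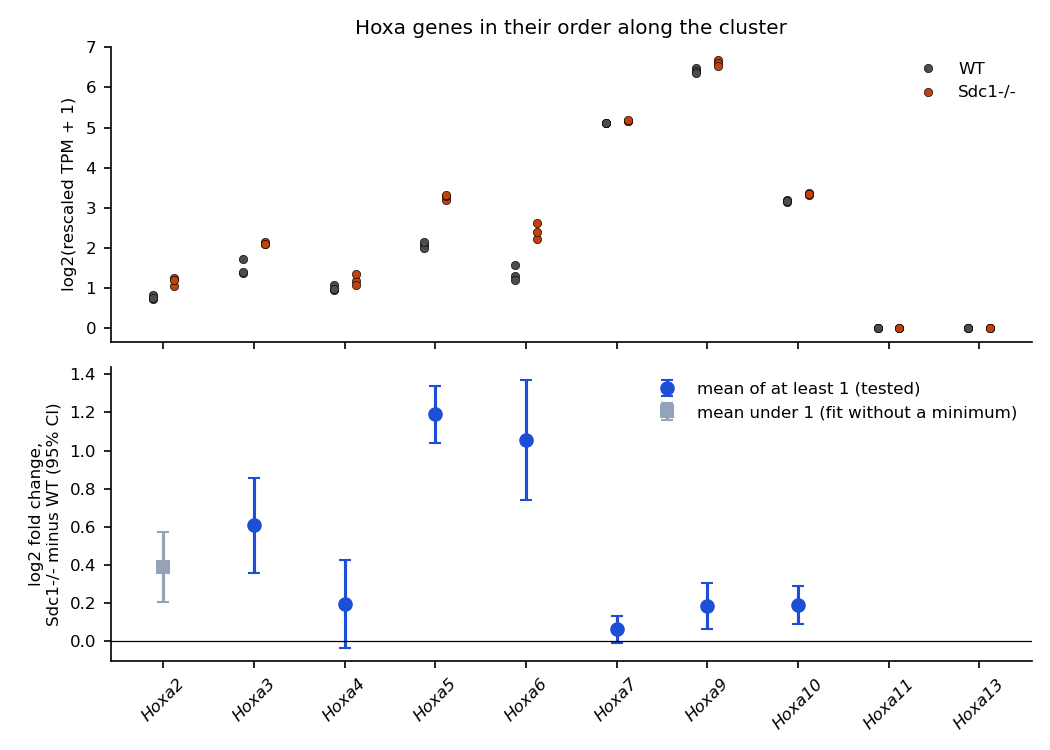
Hoxa genes in their order along the cluster, as log2(rescaled TPM + 1) in each library (upper panel) and as log2 fold change with its 95% CI from limma (lower panel, Hoxa2, with a mean under 1, from the fit without a minimum). The levels peak at Hoxa7 and Hoxa9, whereas the changes peak at Hoxa5 (1.19) and Hoxa6 (1.05), and Hoxa11 and Hoxa13 are at 0.

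Meis1, the TALE partner that speeds up Hoxa9-driven leukemia, had the second largest change. Its values were 13.4, 12.7 and 13.1 in WT and 27.4, 29.5 and 28.9 in libraries labelled Sdc1-/-. All libraries labelled Sdc1-/- were about double the libraries labelled WT, the means differed 2.19-fold, and the log2 fold change was 1.07 (SE 0.043, limma adjusted p = 3.2e-06). Under the alternatives tried it ran from 1.05 to 1.21. The ratio of Meis1 to Hoxa9 within a library, which does not depend on the scaling, was 0.15, 0.15 and 0.16 in WT and 0.27, 0.30 and 0.32 in libraries labelled Sdc1-/-. Meis1 thus gained on Hoxa9 in every library labelled Sdc1-/-. The mean difference of log2(value + 1) rose by 0.89, or by 0.94 with a pseudocount of 0.1. The exact permutation test (two-sided) of that difference gave p = 0.1, the smallest that 3 against 3 libraries allow, and 0.133 after Benjamini-Hochberg adjustment over the 4 ratios compared. Of the words of 31 bases in Meis1 transcripts, 9.5% occur in other genes, nearly all in Gm37818, a larger share than for Hoxa3. The level of Meis1 is less certain on that ground too.

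Pbx3 encodes a TALE protein tied to HOXA9 in leukemia, and was the second most abundant member. It had values of 40.2, 40.6 and 40.1 in WT and of 51.5, 51.6 and 52.0 in libraries labelled Sdc1-/-. The spread within a group was very small, and the log2 fold change was 0.35 (SE 0.028, limma adjusted p = 5.8e-05). Pbx2, a broadly expressed paralog, stood at 22.9, 25.1 and 22.6 in WT and at 26.8, 28.8 and 26.5 in libraries labelled Sdc1-/-. Its groups were separated by less than the range within either, and the log2 fold change was 0.21 (SE 0.054, limma adjusted p = 0.013). Pbx2 shares 5.6% of its words of 31 bases with other genes, nearly all with its neighbour Gpsm3. The ratio of Pbx3 to Pbx2 was 1.71 ± 0.085 in WT and 1.89 ± 0.088 in libraries labelled Sdc1-/- (SD, n = 3 each), and that of Meis1 to Pbx3 went from 0.32 ± 0.011 to 0.55 ± 0.020 (SD, n = 3 each). Neither ratio overlapped between the groups, and for both the exact permutation test (two-sided) of the difference of log2(value + 1) gave p = 0.1.

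In level per length the members ran, in the libraries labelled WT, in the order Hoxa9, Pbx3, Hoxa7, Pbx2, Meis1, Hoxa10, Hoxa5 and Hoxa3, and no neighbours in that order had overlapping values. Among the 12155 tested genes Hoxa9 was at percentile 86.4 of the WT means, Meis1 at 47.9 and Hoxa3 at 9.3. In the libraries labelled Sdc1-/- Meis1 (28.6 ± 1.08) and Pbx2 (27.4 ± 1.24, SD, n = 3 each) had changed places but overlapped, and the rest of the order was as in WT. The genes whose centred log2 values over the 6 libraries lay closest to those of Hoxa9 were Impa2, Pip4k2c and Aaas, with root mean square differences of 0.016 to 0.022. For Meis1 they were Ogt, Mdm4 and Ephx2, with differences of 0.035 to 0.041.

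Beyond the 8 members, 41 of the other 49 listed Hox and TALE genes had a row, and 17 had a mean of at least 1. Of these 13 rose, 1 fell and 3 did not pass the test (limma, adjusted over all genes). Over all tested genes 29.3% were called higher and 31.3% lower. In the Hoxb cluster, known for its role in stem cell self-renewal through Hoxb4, 6 of 8 tested genes rose. Hoxb6 went from 5.95, 6.55 and 5.49 in WT to 15.7, 16.5 and 16.2 in libraries labelled Sdc1-/- (log2 fold change 1.30, limma adjusted p = 6.8e-06). Hoxb2 and Hoxb4 also changed at least 2-fold on the log2 scale (1.15 and 1.05). Hoxb2 was low in WT and exceeded Hoxb6 with a pseudocount of 0.1 (1.76 against 1.42). They were followed by Hoxb5 (0.80), Hoxb8 (0.79) and Hoxb3 (0.63). Hoxb7 was the gene that fell, from 8.35 ± 0.70 to 6.73 ± 0.51 (SD, n = 3 each), a change of -0.27 on the log2 scale (limma adjusted p = 0.017, or 0.14 after scaling to equal sums). Hoxb9 had a log2 fold change of -0.12 (limma adjusted p = 0.17). The sum over the Hoxb genes was 42.7 to 45.6 in WT and 76.5 to 80.0 in libraries labelled Sdc1-/-.

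All 4 tested Hoxc genes rose, a call that 29.3% of all tested genes shared. They were Hoxc4 (log2 fold change 0.44), Hoxc5 (0.46), Hoxc6 (0.59) and Hoxc8 (0.97), the last from 3.53 ± 0.36 to 7.89 ± 0.43 (SD, n = 3 each). No Hoxd gene had a mean of at least 1, and their summed level was 0.079 to 0.26 in WT and 1.15 to 1.21 in libraries labelled Sdc1-/-. Among the other TALE genes Pknox1, which encodes a MEIS relative that competes for PBX, rose by 0.30 on the log2 scale, and Pbx4 had a log2 fold change of 0.10 (limma adjusted p = 0.23). Over the 17 genes the median log2 fold change was 0.63, above that of the members.

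**Figure D3:**
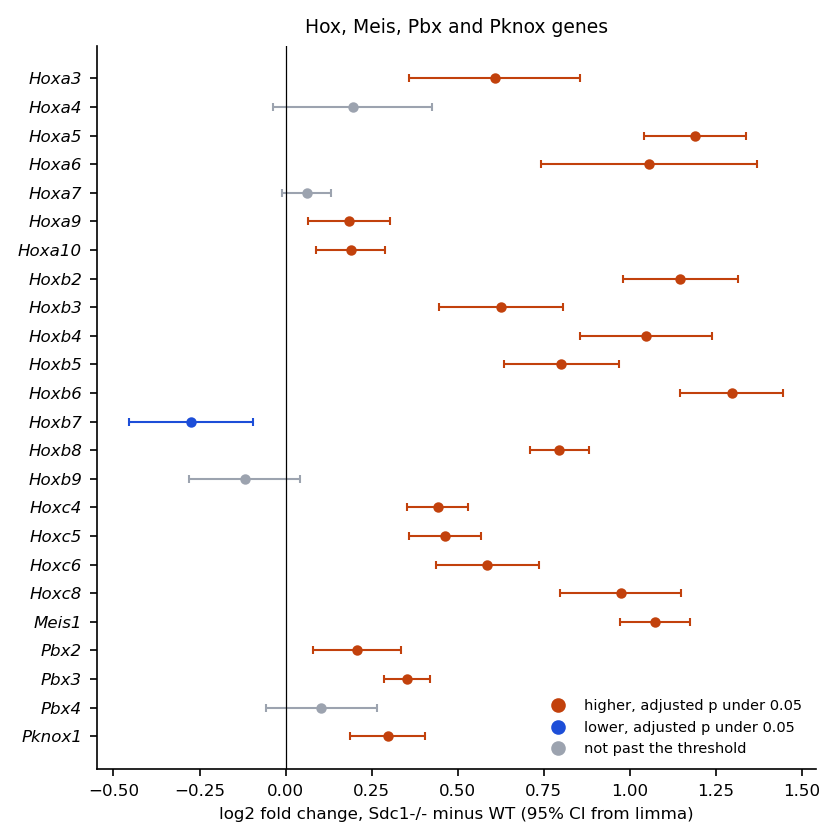
Log2 fold change, Sdc1-/- minus WT, with its 95% CI from limma for Hox, Meis, Pbx and Pknox genes with a mean of at least 1. Of the genes shown, Hoxb7 (-0.27) is called lower, Hoxa4, Hoxa7, Hoxb9 and Pbx4 do not pass the threshold, and the others are called higher.

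Genes for proteins known to act at the Hoxa locus, such as the MLL-menin complex, were read from a second list of 25 genes, 22 of which were tested. Of these 14 rose and 3 fell (limma, adjusted over all genes), where 29.3% of all tested genes were called higher and 31.3% lower. The median log2 fold change was 0.28. Kmt2a, which encodes MLL itself, had the largest change, from 1.66 ± 0.16 to 4.36 ± 0.14 (SD, n = 3 each, log2 fold change 1.01, limma adjusted p = 2.7e-05). Dot1l, the H3K79 methyltransferase, stood at 7.78, 7.47 and 7.51 in WT and at 16.1, 15.7 and 15.6 in libraries labelled Sdc1-/- (log2 fold change 0.97). Meaf6, a subunit of acetyltransferase complexes, rose by 0.69 and Psip1, the chromatin tether of MLL-menin, by 0.68 on the log2 scale. Nup98, the gene of the nucleoporin in the fusion, fell from 44.6 ± 1.52 to 40.2 ± 0.62 (SD, n = 3 each, log2 fold change -0.15, limma adjusted p = 0.011). Any reads of the retroviral fusion that match mouse Nup98 would be counted in it, which was not tested. The other two that fell were Rae1, a binding partner of NUP98, and Kat7, an acetyltransferase, both named after their values were seen. After scaling to equal sums none of the 3 was called, and the value of Nup98 was 0.00020. Cdx1, Cdx2 and Cdx4, upstream regulators of Hox genes in development, were listed at 0 in all libraries.

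A further list held 24 genes tied in earlier work to HOXA9 or MEIS1 as targets or partners in blood cells, and 23 were tested. Of these 10 rose and 12 fell (limma, adjusted over all genes), where 29.3% of all tested genes were called higher and 31.3% lower. The median log2 fold change was -0.19. After scaling to equal sums 10 rose and 8 fell. Trib2, a pseudokinase known as a target of Meis1 and Hoxa9, had the largest rise, from 1.40, 2.25 and 1.21 in WT to 7.54, 7.70 and 7.11 in libraries labelled Sdc1-/- (log2 fold change 1.71, limma adjusted p = 6.3e-05). Sox4, a progenitor transcription factor, rose by 1.12 on the log2 scale from a low level (0.53 ± 0.036 to 2.33 ± 0.24, SD, n = 3 each), and Myb, a transcription factor that progenitors need, by 0.37. Flt3, a receptor often cited as a target of Hoxa9 and Meis1, went the other way, from 12.9, 13.8 and 12.8 in WT to 7.36, 7.83 and 7.95 in libraries labelled Sdc1-/- (log2 fold change -0.70, limma adjusted p = 3.2e-05). The largest falls were those of Id2, an inhibitor of E proteins, with -1.39, and of Ccl3, a chemokine of myeloid cells, with -1.18 on the log2 scale. The list thus held changes in both directions in the libraries in which Meis1 and 6 other members rose.

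**Figure D4:**
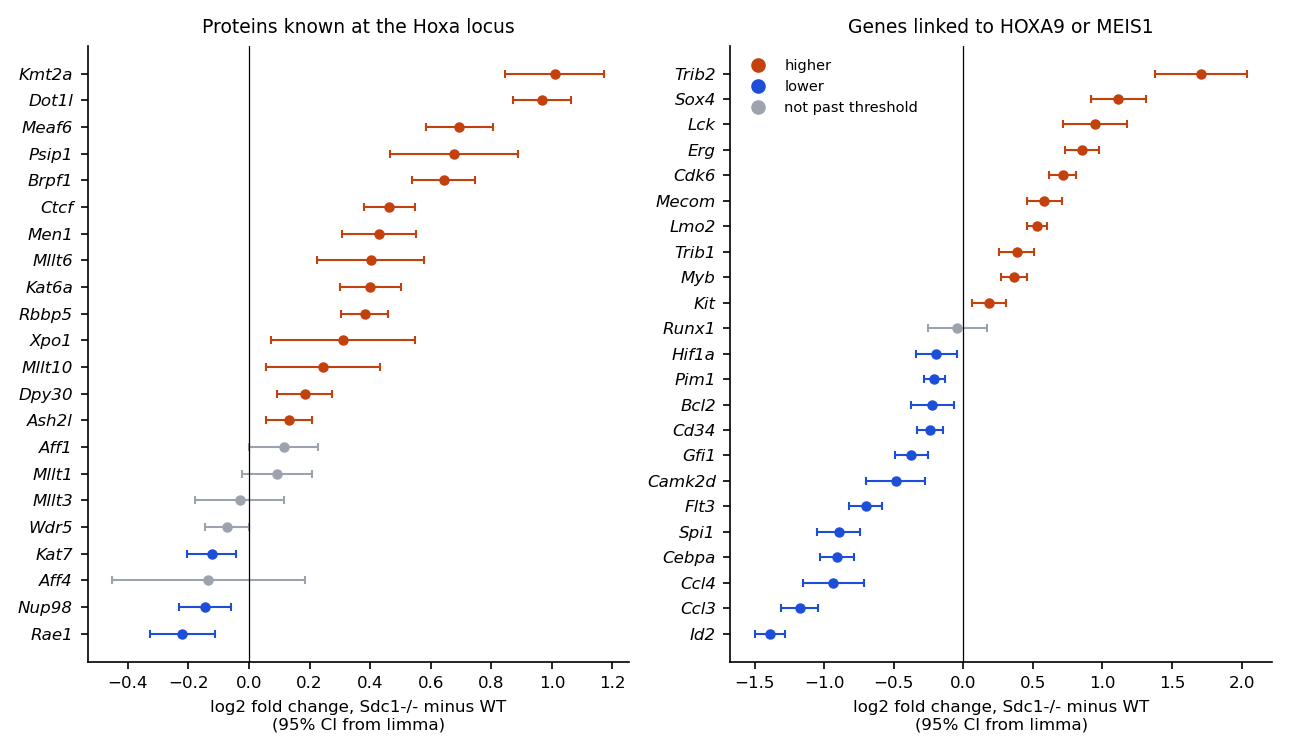
Log2 fold change, Sdc1-/- minus WT, with its 95% CI from limma for 22 genes of proteins known at the Hoxa locus (left) and 23 genes linked to HOXA9 or MEIS1 (right). Kmt2a (1.01) and Dot1l (0.97) lead the left panel, and the right panel runs from Trib2 (1.71) to Id2 (-1.39).

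Marker genes of other blood cells were read because a Lin- sort can keep some of them. By the paper's gating for primary bcCML, live cells positive for the markers of both vectors were selected before the Lin- gate. The paper lists this RNA-seq among the uses of that gating. Per the study's methods, the lineage antibodies included those to Gr1, Mac-1, TER119 and T cell antigens, so mature neutrophils, monocytes, erythroid cells and T cells are cells that the gate is meant to remove. Besides the neutrophil markers, all 4 primary granule genes (summed level 1058 to 1159 in WT, 734 to 754 in libraries labelled Sdc1-/-) and the 5 tested of 6 monocyte or macrophage markers (551 to 573 and 239 to 247) were lower. Ly6g, which defines neutrophils, had means of 8.77 and 1.97. Over all tested genes 31.3% were called lower and 29.3% higher. Of 4 erythroid genes 3 were lower and Klf1 higher (5096 to 5874 and 2966 to 3231), and of 4 megakaryocyte genes 3 were lower and Pf4 higher (452 to 475 and 465 to 477). Mast cell and basophil genes were lower in 3 of 4 (481 to 506 and 285 to 296). Among stem and progenitor genes Kit was higher, while Cd34, Ly6a and Flt3 were lower (77.7 to 86.0 and 64.6 to 65.9). Kit lost its call without WT replicate 1, WT replicate 3 or Sdc1-/- replicate 2 (limma adjusted p = 0.055, 0.060 and 0.055), and Cd34 after scaling to equal sums (0.068). B cell and T cell markers stayed below a sum of 0.23 in every library, and of 4 endothelial or stromal genes Pecam1 was the one tested and was lower (15.8 to 17.1 and 12.9 to 13.1 for the list). No listed marker was at 0 in all libraries. The part of these differences in the levels of the homeobox genes was not tested.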

How the data were processed

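RNA-seq of Lin- bcCML cells in 2 groups of 3 libraries, WT and Sdc1-/-, was grouped by the sample titles. Per the labels and the paper's methods, TruSeq Stranded mRNA libraries were read as single ends, kallisto assigned reads to transcripts, and sleuth 0.30.0 summarized them per gene on mm10. The kallisto version and strand setting are not given in the sources used here. The authors deposited these values as a signal per gene, TPM rescaled between libraries. Depth is unknown. A second table, which holds the authors' Wald test results, was not used.

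Symbols came from GENCODE M21 (35454 of 36083 identifiers matched), and 11369 genes were 0 throughout. On log2(value + 1), limma 3.58.1 (under R 4.3.3) compared the groups with no further term and its trend option, over 12155 genes whose mean reached 1, and p-values were adjusted by Benjamini-Hochberg (0.05). The test had been planned for TPM and was kept for rescaled TPM, and the number of genes called depended on the scaling. Log2 values correlated at 0.993 to 0.996 within and 0.968 to 0.972 between groups, across genes, which are not independent replicates. Python 3.11.15, pandas 2.3.3, scipy 1.17.1 and matplotlib 3.10.9 were used. The test was also run on simulated data in which far fewer genes changed than were called here. That run therefore does not check the test in the setting of these data.

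The members and gene lists were chosen with earlier results of these data known. Named were all members, listed Hox and TALE genes with a group mean of at least 1, and from the lists of locus proteins and linked genes Nup98, Flt3, Myb and the 4 largest called changes, and some listed genes are not reported here. Words of 31 bases were counted in GENCODE M21 transcripts. In all, 15 fits were made, the alternatives covering pseudocount, minimum mean, scaling, trend, replicate block and each library left out.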

Additional observations from a re-analysis of the deposited data

How the results depend on the processing

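Of 111 values of the 8 members under 14 alternatives, 106 kept direction and side of the threshold. Hoxa7 passed after scaling to equal sums of 1000000 (0.21) and with quantile normalization (0.083). Hoxa4 (limma adjusted p = 0.045) and Pbx4 (0.015) passed after that scaling too, and Hoxb9 (0.046) without a variance trend. With a library left out, the log2 fold change of Hoxa9 ran from 0.15 to 0.22 and lost its call in 3 of 6 fits. With a minimum mean of 5, 7 of the other Hox and TALE genes rose, since fewer genes were tested. Of that list 2 fell without a minimum mean and 2 without a variance trend. After scaling to equal sums, 0 of that list and 0 of the locus proteins fell, 2367 genes fell in all, and Wdr5 (0.074), Mllt3 (0.12), Kat7 (0.022), Nup98 (0.00020) and Runx1 (0.093) changed sign. Mllt3 also did so with quantile normalization (0.020). With a library left out, the log2 fold change of Mllt3 ran from -0.065 to 0.036, that of Aff4 from -0.25 to 0.013 and that of Runx1 from -0.10 to 0.061. The Hoxa9 to Hoxa10 difference ran from -0.037 to 0.032. The cause of these changes was not tested. With the replicate block the count of members that rose was 7, and 3653 genes rose and 3971 fell. The replicate numbers were not shown to pair the libraries, since the deviations of same-numbered libraries correlated at 0.151, -0.008 and 0.018. Counting error could not be assessed without read numbers.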

Other observations

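The next values are for a PBX-binding protein and another homeodomain protein, both named after their values were seen. Pbxip1, which encodes a protein that binds PBX and keeps it from DNA, fell from 14.7 ± 0.28 to 11.6 ± 0.28 (SD, n = 3 libraries each), a log2 fold change of -0.31 (limma adjusted p = 0.00053). Hopx, a homeodomain-only protein without DNA binding of its own, had values of 123, 123 and 125 in WT and of 62.2, 60.3 and 60.6 in libraries labelled Sdc1-/-, and its log2 fold change was -1.01 (limma adjusted p = 9.7e-07).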
